A study of Mus musculus with 6 samples.

Results

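Transcript ends of bone marrow-derived macrophages (BMDMs) were compared between a Tut7-/- and a wild-type library, both prepared 4 h after the addition of lipopolysaccharide (LPS). The comparison covered every gene with 10 or more reads over this pair of libraries, which held for 97 genes, against 298 genes with 10 or more reads over all 6 libraries of the series and 964 genes with any read. At the edge of this minimum, 11 genes had exactly 10 reads, of which 8 had them all in 1 library (Arap1 0 in wild type and 10 in knockout, Elf1 10 and 0), and 10 genes had 9 reads, of which 6 had them all in 1 library (Il1rn 9 and 0, Fam129a 0 and 9). The cells came from female C57BL/6J mice aged 7 weeks and were grown from bone marrow in L929-conditioned medium and then in M-CSF. The wild-type mice carried no engineered allele, and Tut7-/- mice were made with CRISPR/Cas9 guides in an early and a late intron of Tut7. The same genotypes were also sampled untreated (Ctrl) and after 2 h of LPS, with 1 library for each of the 6 conditions. The labels do not give the dose of LPS.

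Terminal uridyltransferases add uridines to the 3′ end of RNA, a mark that is recognised by decay enzymes. TUT7, encoded by Tut7, and its relative TUT4 act on mRNAs with short poly(A) tails. Zc3h12a encodes Regnase-1, an RNase that binds stem-loops in inflammatory mRNAs, Il6 among them, and cuts them. LPS signals through Toll-like receptor 4 and induces both the cytokine genes and the RNases that limit them. The comparison asks how the pool of amplified transcript ends at 4 h of LPS differs between cells with and without TUT7.

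In gene-specific TAIL-seq, linker-1 is ligated to the RNA 3′ end, and the ends are amplified between a primer on the linker and primers on chosen genes, here Il6 and Zc3h12a. A read count thus measures how large a part of the amplified pool a gene took, which is not its transcript level in the cell. The paper's methods text names no primer for the other genes, so how their ends entered the pool is not known here. In bulk cells, fewer cells of a type and less RNA per cell cannot be told apart. The shared parts of the Il6 reads are shown because they fix where the measured ends lie. They were read from the deposited read lists, and the 26 bases after the primer from the GENCODE M21 transcript of Il6 (mm10), 5′ to 3′ and in lower case, with the A run of the transcript in capitals.
Linker-1: ctgtaggcaccatcaat
Il6 forward primer, chr5:30019929-30019955, plus strand: tgtttagactgtcttcaaacaaataaa
Il6 after the primer, chr5:30019956-30019981, plus strand: ttatattatatttAAAAAccagtgac
Both stretches lie in the 3′ UTR of Il6, whose annotated end is base 30019981.

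The wild-type and knockout LPS 4 h tables held 56718 and 43540 reads in 241 and 230 genes, and the other 4 libraries between 21408 and 55922 reads. A count of 0 allowed up to 3 reads, which was 0.00529% of the wild-type and 0.00689% of the knockout LPS 4 h reads. Tut7 and Tut4 had 0 reads in all 6 libraries, so the tables give no check of the genotype labels. The pool also held few markers of the cell type. Of 18 macrophage markers, only Lpl reached 10 reads at 4 h, and Mpeg1 had 1 read, while Csf1r, Adgre1, Cd68, Itgam and Cd14 had 0. Markers of T cells, B cells, neutrophils, erythroid cells, fibroblasts, dendritic cells and mast cells had 0 reads in every library.

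Of the genes labelled in the authors' tables, the primed targets Zc3h12a and Il6 had nearly the same share in both genotypes. Zc3h12a (ENSMUSG00000042677.7, chr4:125118423-125127840) had 29685 reads in wild type and 23328 in knockout, which was 52.3% and 53.6% of the libraries. The knockout to wild-type ratio was 1.02 (95% interval 1.01 to 1.04). Il6 (ENSMUSG00000025746.11, chr5:30013114-30019981), the gene of interleukin-6, had 2925 and 2141 reads, or 5.16% and 4.92%, with a ratio of 0.954 (0.901 to 1.01). All intervals between libraries here are exact conditional (Clopper-Pearson) 95% intervals, they cover counting error only, and they are not tests of the genotype, because each side was 1 library.

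The cytokine genes Il10 and Tnf took larger shares of the knockout library. Il10 (ENSMUSG00000016529.5, chr1:131019845-131024974), which encodes an anti-inflammatory cytokine, had 3501 reads (6.17%) in wild type and 3563 (8.18%) in knockout, a ratio of 1.33 (1.26 to 1.39). Tnf (ENSMUSG00000024401.14, chr17:35199381-35202007), which encodes tumour necrosis factor, had 826 (1.46%) and 956 reads (2.20%), a ratio of 1.51 (1.37 to 1.66). Of the list of cytokines and NF-kB-driven genes, 4 of 46 members reached 10 reads, and 3 were higher, 0 lower and 1 with an interval that held 0, beside 41.2% higher and 28.9% lower over all 97 genes. The median log2 ratio of the 4 was 0.22, beside 0.38 over all 97 genes. With edgeR's TMM factors, which lowered every log2 ratio by 0.78, all of Zc3h12a, Il6, Il10 and Tnf lay below 0 (-0.74, -0.85, -0.37 and -0.19). With DESeq2 size factors, which lowered every ratio by 0.44, Il10 was at -0.03 and Tnf at 0.15.

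Ratios between genes of the same library do not depend on such scaling, but they depend on the reference gene. The paper reports more Zc3h12a mRNA and less Il6 mRNA in Tut7-/- BMDMs given LPS, so neither is a neutral reference. Its methods text gives gene primers for Zc3h12a and Il6 only, so other genes are set against a primed one. In wild type there were 11.8 reads of Il10 per 100 reads of Zc3h12a, and in knockout 15.3, which was 1.30 times as many (95% Wald interval 1.23 to 1.36). For Tnf the values were 2.78 and 4.10, a ratio of 1.47 (1.34 to 1.62). For Il6 they were 9.85 and 9.18, a ratio of 0.931 (0.879 to 0.987). Relative to Zc3h12a, Il10 and Tnf were thus higher and Il6 lower in the knockout library, with every interval on 1 side of 1. With Il6 as the reference in place of Zc3h12a, Il10 was at 1.39 (1.29 to 1.50) and Tnf at 1.58 (1.42 to 1.76).

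The ratios of Il10 and Tnf were closer to 1 in the libraries of the other times. Relative to Zc3h12a, the knockout to wild-type ratio of Il10 was 0.965 (0.826 to 1.13) in Ctrl and 0.926 (0.871 to 0.984) at 2 h. For Tnf it was 0.940 (0.744 to 1.19) in Ctrl and 1.09 (1.02 to 1.17) at 2 h. Between 2 h and 4 h, Il10 went from 2122 to 3501 reads in wild type and from 2367 to 3563 in knockout, which was 1.30-fold (1.23 to 1.37) and 1.93-fold (1.83 to 2.04) more per library size. Tnf went from 1373 to 826 reads in wild type and from 1809 to 956 in knockout, leaving 0.473 (0.434 to 0.516) and 0.679 (0.627 to 0.735) of its share. Il6 went from 1728 to 2925 reads in wild type and from 1991 to 2141 in knockout, or 1.33-fold (1.25 to 1.41) and 1.38-fold (1.30 to 1.47), so its course between these times was close to equal in both genotypes.

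**Figure D1:**
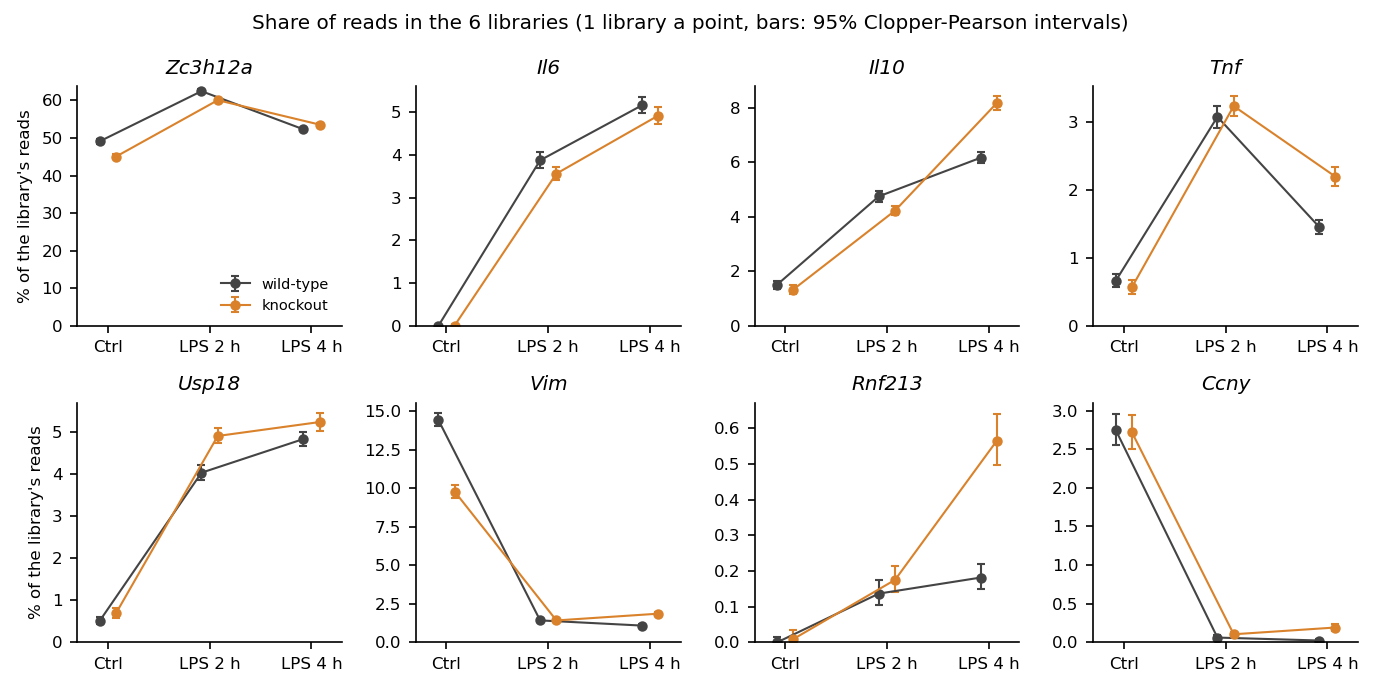
Share of each library's reads (y axis, %) for 8 genes in Ctrl, at LPS 2 h and at LPS 4 h (x axis), with wild type in grey and Tut7 knockout in orange, 1 library a point and bars for Clopper-Pearson 95% intervals. At LPS 4 h the knockout library lies above wild type for Il10 (8.18% and 6.17%), Tnf (2.20% and 1.46%), Vim (1.86% and 1.09%) and Rnf213 (0.565% and 0.182%), while the shares of Il6 were 4.92% and 5.16%.

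Among interferon-induced genes, 3 of 55 reached 10 reads, of which 2 were higher and 1 lower, beside 41.2% and 28.9% of all 97 genes. Usp18, whose product removes ISG15 from proteins and restrains interferon receptor signalling, had 133 reads in untreated wild type, 1798 after 2 h of LPS and 2738 after 4 h, against 148, 2741 and 2278 in knockout. At 4 h these were 4.83% and 5.23% of the libraries, a ratio of 1.08 (1.02 to 1.15). Rnf213, which encodes a large ubiquitin ligase, had 0, 61 and 103 reads in wild type and 2, 98 and 246 in knockout. Its ratio at 4 h was 3.11 (2.46 to 3.96), against a log2 ratio at 4 h above that at 2 h by 1.28 (95% Wald interval 0.71 to 1.85).

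Relative to Zc3h12a, Usp18 was 1.48 times as frequent in knockout as in wild type in Ctrl (1.17 to 1.87), 1.27 times at 2 h (1.19 to 1.35) and 1.06 times at 4 h (0.999 to 1.12). The genotype difference of Usp18 was thus smallest at 4 h, where its interval reached 1, while relative to Il6 it was at 1.14 (1.05 to 1.23). Rnf213 was at 1.33 (0.968 to 1.84) at 2 h and at 3.04 (2.41 to 3.83) at 4 h by the same measure. Rnf213 remained higher in knockout at 4 h under all 5 scalings, with log2 ratios from 0.85 with TMM factors upwards. Usp18 went below 0 with TMM factors (-0.66), DESeq2 size factors (-0.32) and the library size without the 10 most abundant genes (-0.13).

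Over all 97 genes, 40 were higher in the knockout library (41.2%), 28 were lower (28.9%) and 29 had an interval that held 0. Of the higher genes 18 had 0 reads in wild type, and of the lower genes 24 had 0 reads in knockout. With 10 or more reads all in 1 library the interval always left out 0, so the read minimum fixed these calls in advance. The 41.2% and 28.9% set beside the gene lists include them. Among genes with reads in both libraries, 22 were higher and 4 lower. Scaled by TMM factors, 28 genes were higher and 42 lower, by DESeq2 size factors 33 and 33, and with the library size without the 10 most abundant genes 36 and 32. Under all 5 scalings, 28 of the 40 genes stayed higher, 10 of them with reads in both libraries, and 28 of the 28 stayed lower, 4 of them with reads in both. The other scalings shifted every log2 ratio by -0.78, -0.44, -0.25 or 0.03, so a gene called lower could hardly lose its call. These counts therefore do not make the falls firmer than the rises. By annotation 86 of the 97 genes were protein-coding.

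The size of the difference depended on how many reads a gene had. The 12 genes with 100 or more reads held 97.3% of the wild-type and 96.6% of the knockout reads, and their median absolute log2 ratio was 0.51. It was 1.12 for the 9 genes with 50 to 99 reads, 3.73 for the 29 genes with 20 to 49 reads and 4.14 for the 47 genes with 10 to 19 reads. In the last group 28 genes had no read in 1 of the libraries, 12 in wild type and 16 in knockout. The deposited reads carry no molecular identifiers, and whether copies made by PCR account for genes with 10 or more reads in 1 library and 0 in the other was not tested.

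**Figure D2:**
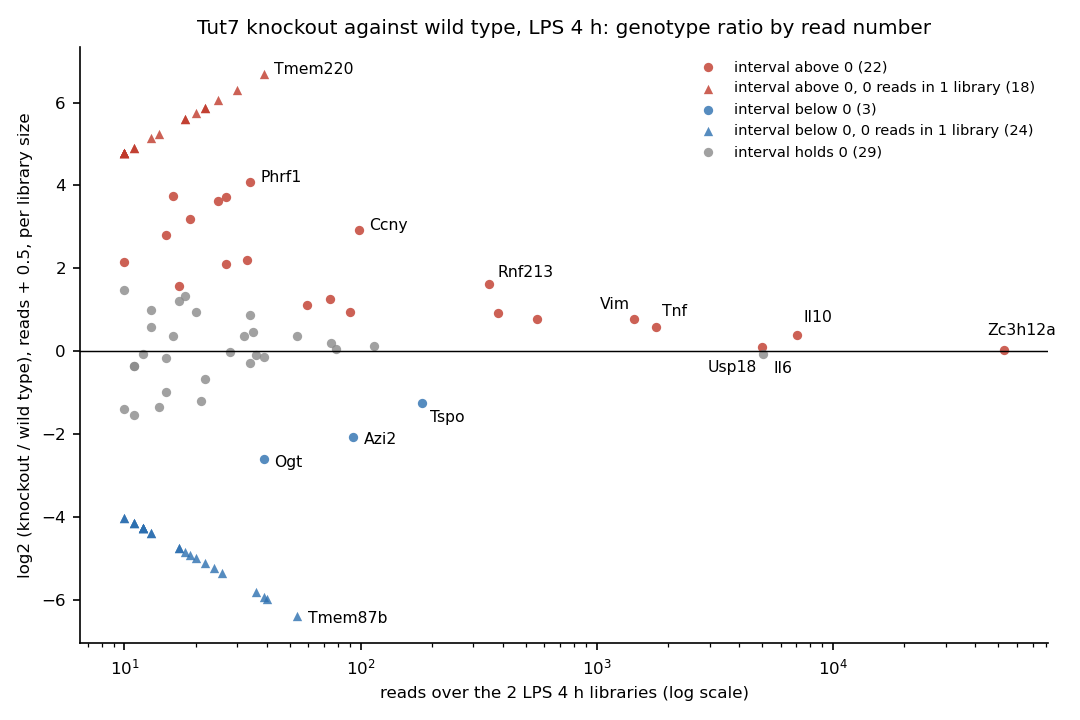
Log2 ratio of knockout to wild type at LPS 4 h (y axis, 0.5 read added, scaled to library size) against the reads over both libraries (x axis, log scale) for 96 of the 97 genes. Red points have an interval above 0, blue below 0 and grey holding 0, and triangles mark genes with 0 reads in 1 library, 18 in wild type and 24 in knockout. The spread narrows from left to right, from a median absolute log2 ratio of 4.14 at 10 to 19 reads to 0.51 at 100 or more.

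Among genes of the cytoskeleton and of membrane traffic, the abundant Vim and Actr2 and the less abundant Rab10 had a higher share in knockout. Vim, the gene of the intermediate filament protein vimentin, had 620 reads in wild type and 812 in knockout at 4 h, a ratio of 1.71 (1.53 to 1.90). Its reads were 3760 and 2097 in Ctrl and 638 and 798 at 2 h, so the knockout library was lower before LPS and higher at 4 h. Actr2, a subunit of the actin-nucleating Arp2/3 complex, had 155 and 225 reads, a ratio of 1.89 (1.53 to 2.34). Rab10, a small GTPase of vesicle transport, had 26 and 48 reads, a ratio of 2.40 (1.46 to 4.04).

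Other members of this group did not share the direction. Lcp1, which encodes the actin-bundling protein plastin-2, had 23 and 16 reads, a ratio of 0.906 (0.447 to 1.79). Nckap1l, a subunit of the WAVE complex in blood cells, had 36 reads in wild type and 0 in knockout. That was 9.21-fold lower with 3 reads standing for the 0, and the exact interval of the ratio reached up to 0.141. At 2 h the order was opposite, with 7 reads in wild type and 56 in knockout. Of 43 listed cytoskeleton and traffic genes, 4 reached 10 reads at 4 h, of which 2 were higher, 1 lower and 1 held 0 (median log2 ratio 0.32), which at this number is near the 41.2% higher and 28.9% lower of all genes. Actr2 was not on that list, and neither was Dst, a cytoskeletal linker gene with 40 reads in wild type and 0 in knockout. With TMM factors the intervals of Vim (-0.01), Actr2 (0.14) and Rab10 (0.47) held 0.

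Genes of lipid handling and lysosomes pointed both ways. Lpl, the gene of lipoprotein lipase, had 22 and 37 reads at 4 h, a ratio of 2.19 (1.26 to 3.90), after 307 and 349 reads in Ctrl and 29 and 50 at 2 h. Tspo, which encodes a translocator protein of the outer mitochondrial membrane, had 138 reads in wild type and 44 in knockout, a ratio of 0.415 (0.289 to 0.587). In Ctrl it had 34 and 45 reads and at 2 h 18 and 72, so knockout was above wild type at the earlier times and below it at 4 h. Relative to Zc3h12a the ratio of Tspo was 1.75 (1.12 to 2.74) in Ctrl, 3.32 (1.98 to 5.57) at 2 h and 0.406 (0.289 to 0.570) at 4 h. Lipa, which encodes lysosomal acid lipase, had 7 and 5 reads and an interval from 0.233 to 3.41. Of 40 listed genes 3 reached 10 reads, 1 higher, 1 lower and 1 holding 0, beside 41.2% higher and 28.9% lower over all genes.

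Ccny, which encodes cyclin Y, had the largest rise in share among the genes with 50 or more reads. It had 716 reads in untreated wild type, 28 after 2 h of LPS and 14 after 4 h, against 582, 59 and 84 in knockout. Its share thus stood at 0.00897 (0.00488 to 0.0152) of the Ctrl share after 4 h in wild type and at 0.0710 (0.0558 to 0.0893) in knockout. At 4 h the knockout to wild-type ratio was 7.82 (4.41 to 14.9), and it stayed above 1 under all 5 scalings, with a log2 ratio of 2.15 with TMM factors. Tlk1, the gene of a chromatin-associated kinase on the same list of 4 genes that fell after LPS in these libraries, had 44 and 35 reads and a ratio of 1.04 (0.645 to 1.65). That list was drawn from these samples and is no independent evidence of a direction.

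The genes with the largest ratios had few reads. The rule for rises, which asked for 30 or more reads in knockout and an interval above 0, was met by 15 genes, of which the 10 with the largest ratios are described. Tmem220, a membrane protein gene, had 0 reads in wild type and 39 in knockout, 16.9-fold higher with 3 reads standing for the 0. In Ctrl it had 3 and 41. Ubxn1, a cofactor of the segregase p97, had 0 and 30 reads, 13.03-fold higher by the same measure. Phrf1, which encodes a ring finger protein, had 2 and 32 reads, a ratio of 20.8 (5.32 to 179), but 23 and 0 in Ctrl and 24 and 0 at 2 h. Its order between the libraries at 4 h was therefore opposite to that at both other times. The long non-coding RNA 4930589L23Rik had 36 and 54 reads (ratio 1.95, 1.26 to 3.07) and CT010467.1, annotated as rRNA in a library depleted of rRNA, had 241 and 317 reads (ratio 1.71, 1.44 to 2.03).

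Of the 8 genes that met the rule for falls, 7 are described. Tmem87b, a membrane protein gene, had 54 reads in wild type and 0 in knockout, at least 13.8-fold lower, and 0 in all of the other 4 libraries. Dst, the gene of the cytoskeletal linker dystonin, had 40 and 0 reads, 10.2-fold lower by the same measure, and was likewise at 0 elsewhere. Pold4, the smallest subunit of DNA polymerase delta, had 39 and 0 reads, 9.98-fold lower, but 5 and 20 in Ctrl and 4 and 15 at 2 h. Folds against 0 reads leave out the counting error of the other library and lie above the limit of the exact interval, which was 13.1-fold for Tmem220 and 9.96-fold for Ubxn1. For the falls, the upper limit of the knockout to wild-type ratio was 0.0921 for Tmem87b, 0.126 for Dst and 0.129 for Pold4.

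Azi2 and Ogt had reads on both sides. Azi2, an adaptor of the kinase TBK1 that acts downstream of Toll-like receptors, had 79 reads in wild type and 14 in knockout, a ratio of 0.231 (0.121 to 0.411), and 2 to 5 reads in the other 4 libraries. It was the only 1 of 39 listed Toll-like receptor and TBK1 signalling genes with a read at 4 h. Ogt, the O-GlcNAc transferase gene, had 35 and 4 reads, a ratio of 0.149 (0.0384 to 0.416), after 48 and 54 in Ctrl and 17 and 2 at 2 h. Azi2, Ogt and Tspo remained lower under all 5 scalings, which mostly moved ratios further down and so could hardly change this.

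**Figure D3:**
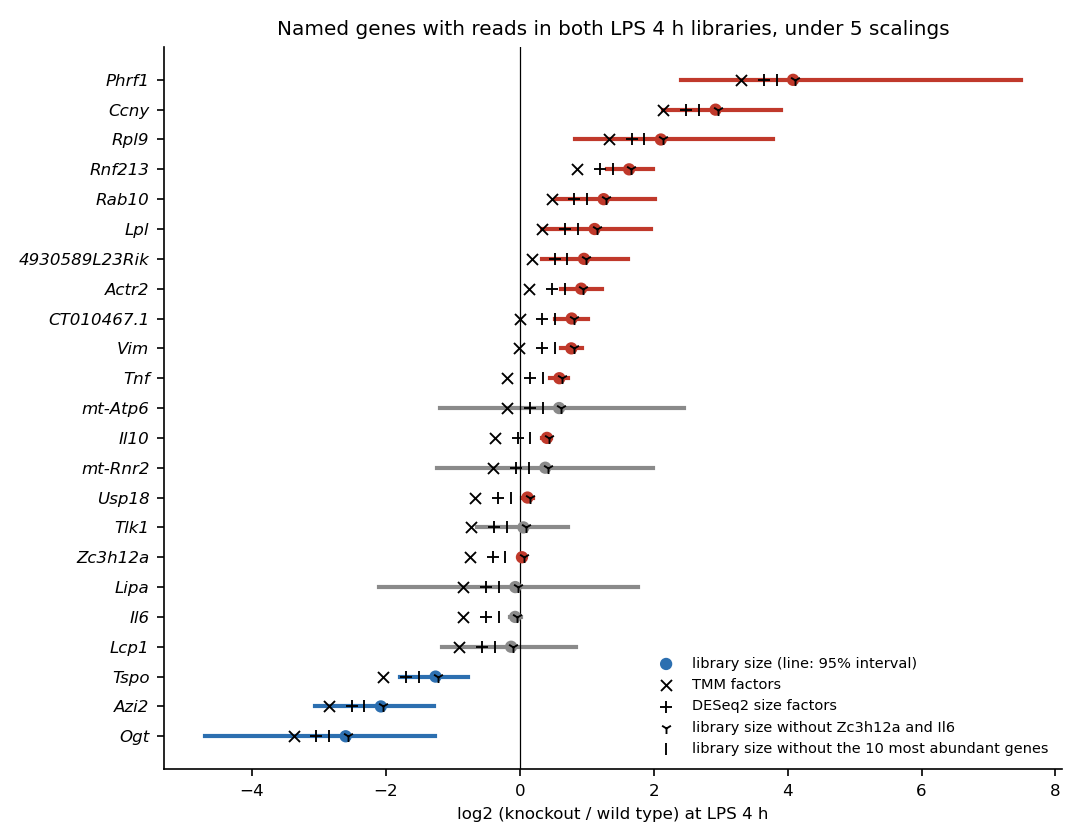
Log2 ratio of knockout to wild type at LPS 4 h (x axis) for the named genes with reads in both libraries (y axis). Points give the value scaled to library size, with lines for 95% intervals in red (above 0), blue (below 0) or grey (holding 0), and black symbols give 4 other scalings. TMM factors move every gene left by 0.78, which puts Il10 at -0.37 and Tnf at -0.19 and leaves Rnf213 at 0.85 and Ccny at 2.15.

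The remaining lists gave little at this depth. Of 103 ribosomal protein genes only Rpl9 reached 10 reads, with 6 and 21 reads and a ratio of 4.56 (1.78 to 13.8), and the counting could have split reads between Rpl9 and its copy Rpl9-ps6 (3 and 7 reads), which was not tested, so this ratio is uncertain. Of 37 mitochondrial genes, mt-Rnr2 had 8 and 8 reads and mt-Atp6 6 and 7, both with an interval that held 0. Of 48 genes of terminal uridylation and mRNA decay, 3 had a read at 4 h, namely Xrn1 (3 and 0), Mtpap (1 and 0) and Dcp1a (0 and 1). Of 70 replication-dependent histone genes 1 had a read.

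Many genes were read in 1 library only. Of the 379 genes with a read at 4 h, 92 had reads in both libraries, 149 in wild type only and 138 in knockout only. The genes of 1 library held 1.40% of the wild-type and 1.44% of the knockout reads. Of the 97 genes tested, 24 had 0 reads in knockout, with 10 to 54 reads in wild type, and 10 of the 24 had 0 reads in all other libraries as well. Another 18 had 0 reads in wild type, with 10 to 39 in knockout, and 2 of them, Uba1 (18 reads) and St3gal5 (11 reads), had 0 in all others. Among the 55 genes with reads in both libraries, 22 were higher and 4 lower per library size, but 10 were higher and 18 lower with TMM factors, and 15 and 9 with DESeq2 size factors.

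Genes with 0 reads in 1 library were also found at the other times, at lower shares than at 4 h. They made up 43.3% of the genes tested at 4 h, 28.7% at 2 h and 34.0% in Ctrl. At 2 h, 28.7% of 115 genes were higher and 33.9% lower in knockout, and in Ctrl 38.7% and 26.2% of 191 genes. Each of these comparisons used its own pair of libraries. Unequal counts were thus found about as often in the libraries of cells not given LPS.

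The genes called at 4 h are set here beside their own values at the other times. Of the 40 genes higher at 4 h, 24 reached 10 reads in Ctrl, where 10 were higher, 5 lower and 9 held 0, near the 38.7% higher and 26.2% lower of all genes in Ctrl. At 2 h 21 of them did, with 5 higher, 6 lower and 10 holding 0, beside 28.7% higher and 33.9% lower of all genes. Of the 28 genes lower at 4 h, 10 were tested in Ctrl (5 higher, 3 lower, 2 holding 0) and 11 at 2 h (4 higher, 3 lower, 4 holding 0). Usp18 was the only gene higher in knockout at all 3 times, and 0 genes were lower at all 3. Under the 4 other scalings 0 genes were higher at all 3 times, and with TMM factors 2, Il10 and Pi4k2a, were lower.

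**Figure D4:**
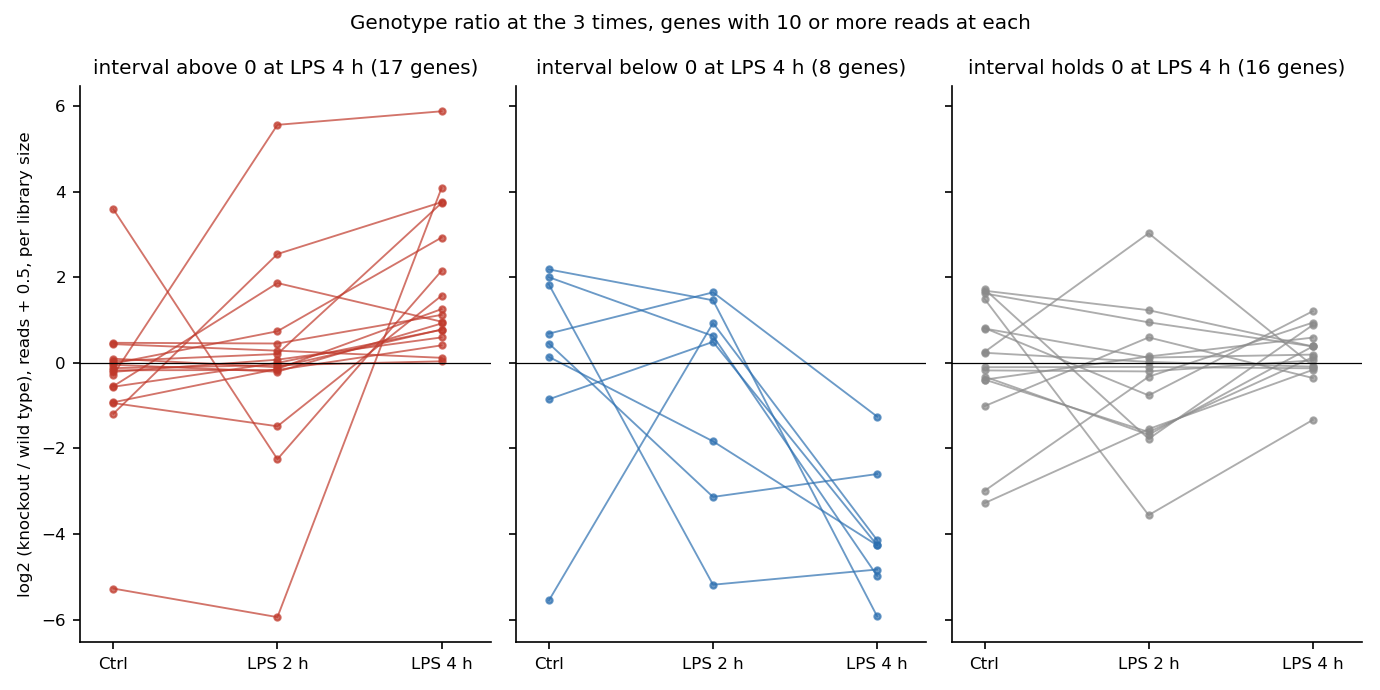
Log2 ratio of knockout to wild type (y axis, 0.5 read added, scaled to library size) in Ctrl, at LPS 2 h and at LPS 4 h (x axis) for genes with 10 or more reads at each time, 1 line a gene, split by the interval at LPS 4 h. Lines cross 0 in the left and middle panels, as for Phrf1 (-5.27, -5.94 and 4.08) and Pold4 (2.18, 1.46 and -5.92).

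A model over the 6 libraries with LPS time, a genotype effect shared by Ctrl and LPS 2 h and a separate genotype effect at LPS 4 h left 1 residual degree of freedom. That degree of freedom came from Ctrl and LPS 2 h, while the LPS 4 h effect was fitted exactly from 1 library a side, which was assumed to vary like the others. The calls are therefore given as a description of these libraries, with no p-value. At a Benjamini-Hochberg adjusted threshold of 0.05 in edgeR's quasi-likelihood fit, 2 of 210 genes (0.952%) were past it, Ccny with a log2 effect of 2.95 and Vim with 0.77, and 13 were past 0.05 unadjusted. Tnf (0.59), Il10 (0.41), Il6 (-0.07) and Zc3h12a (0.03) were not past it. Neither Ccny nor Vim was past it under any of 6 other settings. The effect of Ccny was 2.18 with TMM factors, 2.52 with DESeq2 size factors, 2.95 with the pair's own read minimum, 2.97 in DESeq2, 2.92 in limma-voom and 1.15 when 1 effect was shared by all times. That of Vim was 0.77 with the pair's read minimum, in DESeq2 and in limma-voom, 0.33 with DESeq2 size factors, -0.0079 with TMM factors and 0.067 when shared by all times. The difference of the 4 h effect from that of the other times, a contrast chosen after seeing the data, put 1.43% of the 210 genes past the threshold, among them Ccny and Vim.

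The Il6 read lists hold the transcript ends themselves. After lines without a read were left out (45 in wild type and 34 in knockout), 1711 and 1696 reads ended at linker-1. They formed 926 and 875 different sequences. Of them, 80.9% (1385 reads) in wild type and 79.1% (1341) in knockout continued into Il6 after the primer, within 2 edits over 13 bases. The A runs of these reads had a median of 11 nt in both libraries, with quartiles of 6 and 13 nt in wild type and 8 and 13 nt in knockout.

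Most of these reads had an A run at 1 of 3 places in the Il6 end. The commonest A-ended read of each is given from the first base after the primer, or from base 14 where the read was longer, with the final A run in capitals.
Proximal: ttatattatatttAAAAAAAAAAAAA
Middle: ttatattatatttaaaaaccAAAAAAAAAA
Distal, from base 14: aaaaaccagtgactgAAAAAAAAAAA
These exact reads were found 90 and 88 times (proximal), 38 and 34 times (middle) and 24 and 33 times (distal) in wild type and knockout. The first 5 A of the proximal run are also in the transcript. Proximal reads made up 38.8% in wild type and 41.9% in knockout, a difference of 3.06 points (95% Newcombe interval -0.62 to 6.74). Middle reads made up 12.4% and 12.3% (-0.11 points, -2.59 to 2.37) and distal reads 24.1% and 22.0% (-2.12 points, -5.27 to 1.05). The remaining 24.6% and 23.8% of reads were assigned to none of these places. When identical sequences were counted once, proximal reads made up 12.8% and 14.6% (1.79 points, -2.07 to 5.70) and those at none of the 3 places 51.2% and 52.8%. The choice among these places did not differ beyond counting error, and the intervals leave room for a shift of up to 6.74 points.

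Uridine ends are shown by the commonest proximal reads with 1 and with 2 final uridines, written as T in the reads and in capitals.
1 U: ttatattatatttaaaaaaaaaaaaaaT
2 U: ttatattatatttaaaaaaaaaaaaaaaTT
They were found 10 and 8 times (1 U) and 2 and 2 times (2 U) in wild type and knockout. Of all Il6 primer reads, 15.6% (267 reads, Clopper-Pearson 95% interval 13.9 to 17.4%) ended in U in wild type and 14.03% (238 reads, 12.4 to 15.8%) in knockout, a difference of -1.57 points (-3.96 to 0.82). A single U ended 9.23% and 8.96% of reads (-0.27 points, -2.21 to 1.67). A run of 2 or more U ended 6.37% and 5.07% (109 and 86 reads, -1.30 points, -2.87 to 0.27). The longest U run was 7 nt in wild type and 10 nt in knockout. These shares include reads that did not continue into Il6 and reads without an A run. Of the reads continuing into Il6, 14.5% and 12.7% ended in U (-1.84 points, -4.41 to 0.74). Of those with 3 or more A before the end, 13.2% and 11.3% did (169 and 146 reads, -1.82 points, -4.36 to 0.72).

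The intervals of the other ends held 0 as well. A ended 68.1% of wild-type and 70.5% of knockout reads (2.43 points, -0.67 to 5.52), C 10.99% and 9.67% (-1.32 points, -3.37 to 0.73) and G 5.32% and 5.78% (0.46 points, -1.09 to 2.01). Most G ends were on reads that did not continue into Il6, since G ended 1.52% and 1.34% of those that did (-0.17 points, -1.10 to 0.76). Among reads continuing into Il6, U-ended reads had shorter A runs, with a median of 8 nt against 11 nt for A-ended reads in both libraries. A read that stopped at a T of the transcript itself would also count as U-ended with a short A run. Such reads were not set apart, so neither these medians nor the split by A run measure added uridines alone. Split by A run, U ended 23.6% and 21.6% of wild-type and knockout reads with under 10 A, 8.14% and 8.27% with 10 to 14 A, and 12.8% and 7.58% with 15 or more A (-5.20 points, -11.6 to 0.93, 180 and 198 reads). Of 36 shares compared within such splits by A run or place, 1 had an interval that left out 0, G ends at the proximal place (1 of 538 and 8 of 562 reads). When identical sequences were counted once, U ended 24.4% and 22.6%.

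**Figure D5:**
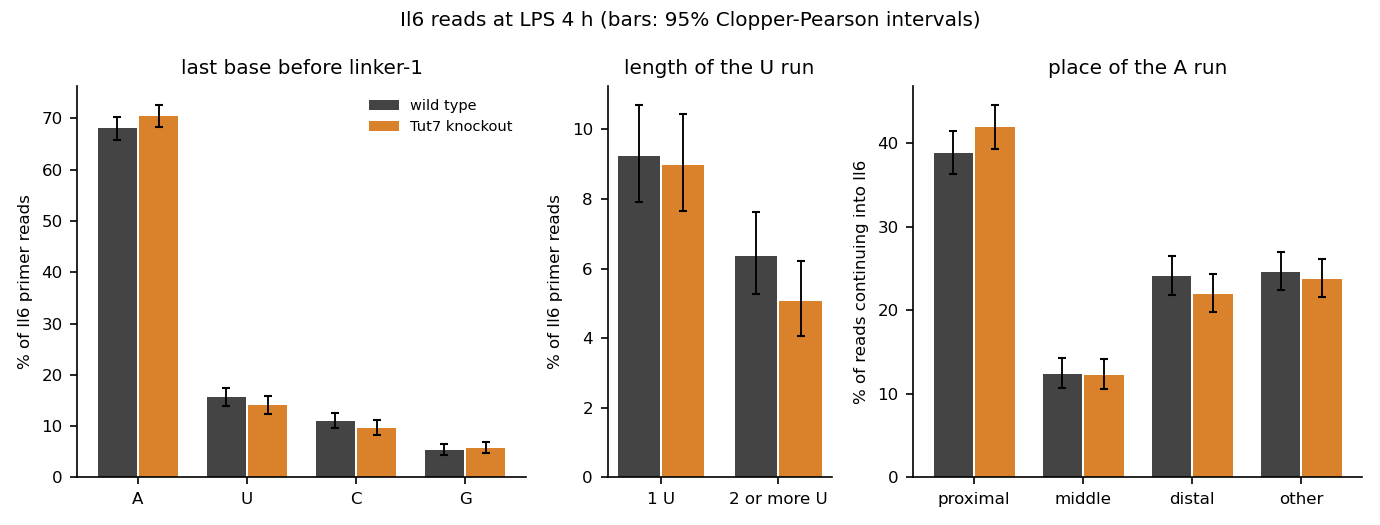
Share of reads (y axes, %) by last base before linker-1, by length of the U run and by place of the A run in the Il6 lists at LPS 4 h, with wild type in grey, Tut7 knockout in orange and Clopper-Pearson 95% intervals. Bars of both libraries overlap in their intervals throughout, as for runs of 2 or more U (6.37% and 5.07%).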

How the data were processed

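BMDM ends were measured by gene-specific TAIL-seq in 6 libraries, 1 for each genotype and time. The authors deposited raw read counts per Ensembl gene, made from reads aligned with HISAT2 to mm10 per the submitters' processing notes. In the sources used here, the gene counter, strand setting and any removal of PCR duplicates are not given, so overlapping genes, antisense genes and pseudogenes are uncertain. The submitters speak of duplicates, and whether a library pools them is not given. Il6 read sequences were deposited as lists, full and trimmed.

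Gene names came from GENCODE M21, which matched 964 of 964 identifiers with a read, 935 with the same version. Coordinates are given for the latter. One labelled gene is counted in every total and not reported here.

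Log2 ratios were scaled to library size with 0.5 read added, for genes with 10 or more reads over the pair, and folds are ratios without it. Intervals and floors (3 reads) cover counting error only. The model was fitted with edgeR 4.0.16 (R 4.3.3) on genes passing filterByExpr (minimum count 10, minimum total 15), threshold 0.05, and the computations used Python 3.11.15 and scipy 1.17.1. They were tested on simulated data. The other settings tried were TMM factors, the size factors and Wald test of DESeq2 1.42.0, limma 3.58.1 (voom), library sizes without Zc3h12a and Il6 or the 10 most abundant genes, 1 or 50 reads as minimum, 2 reads added, 99% intervals, and for Il6 identical sequences once, 2 linker mismatches, 3 A before the end and the trimmed list. Those on Il6 places, reads continuing into Il6, the difference between times, all 3 times and Il6 as reference were chosen after seeing the data.

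Named genes were the labelled genes, the 10 most abundant, the 10 largest rises and falls with at least 30 reads on the higher side and an interval leaving out 0, list members with 10 reads, Tut7, Tut4 and genes called by the model. Genes given as examples at the read minimum, of reads in 1 library, or at all 3 times (Arap1, Elf1, Il1rn, Fam129a, Uba1, St3gal5, Pi4k2a, Rpl9-ps6) were picked after their values were seen. Members and lists were chosen with earlier results of these data known.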

Additional observations from a re-analysis of the deposited data

Results flagged for a closer look

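In the model over 6 libraries, the genotype effect at LPS 4 h was set against the effect shared by Ctrl and LPS 2 h, a contrast chosen after seeing the data. Ccny had a log2 genotype effect 2.60 higher at 4 h than at the other times, from 716 and 582 reads in wild-type and knockout Ctrl, 28 and 59 at 2 h, and 14 and 84 at 4 h. Vim had an effect 1.05 higher, from 3760 and 2097, 638 and 798, and 620 and 812 reads. They were singled out because both were past an adjusted threshold of 0.05 in edgeR's quasi-likelihood fit. The 4 h effect came from 1 library a genotype and the fit had 1 residual degree of freedom, all of it from the other times, so this is no test of a genotype difference between times. Neither was past the threshold with TMM factors (Ccny 1.92 and Vim 0.36) or DESeq2 size factors (1.97 and 0.41). With no replicate libraries, the groups were too small for a search for outlying samples.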

How the results depend on the processing

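Scaling turned the direction of several abundant genes, while Rnf213, Actr2 and Il6 kept their sign under all 5 scalings. The interval of Actr2 held 0 with TMM factors (0.14). That of Il6 held 0 at library size (-0.069) and without Zc3h12a and Il6 (-0.034). With TMM factors the median log2 ratio of all genes went from 0.38 to -0.40, with DESeq2 size factors to -0.056 and without the 10 most abundant genes to 0.14. TMM factors turned CT010467.1 (-0.0024), Vim (-0.0082, and -0.0079 in the model), Tnf (-0.19), Il10 (-0.37), Usp18 (-0.66), Tlk1 (-0.72), mt-Rnr2 (-0.40), mt-Atp6 (-0.19) and Zc3h12a (-0.74) below 0, among the genes named. DESeq2 size factors did so for Il10 (-0.031), Usp18 (-0.32), Tlk1 (-0.38), mt-Rnr2 (-0.056) and Zc3h12a (-0.40), and the size without the 10 most abundant genes for Usp18 (-0.13), Tlk1 (-0.19) and Zc3h12a (-0.21). A minimum of 50 reads left 12 genes higher and 4 lower of 21. The model's count of 2 genes became 0 with TMM factors, DESeq2 size factors in edgeR, the pair's read minimum (97 genes), 1 shared genotype effect and the DESeq2 Wald test, and 1 with limma-voom, which was neither of them. For the difference from the other times the count of 3 became 1 with TMM factors (Nckap1l) and 0 with DESeq2 size factors and the pair's read minimum. The differences in Il6 ends kept an interval holding 0 under all 30 recomputed shares. Among these, allowing 2 linker mismatches gave the same reads as the main setting, because none lacked the exact linker, so its shares add no check. No analysis paired by replicate was possible because each condition had 1 library and the labels give no replicate numbers beyond it. Pairing by time alone, which is the fit with 1 shared genotype effect, put 0 of 210 genes past the threshold in edgeR (5 at an unadjusted p under 0.05). Leaving out a Ctrl or LPS 2 h library would leave the model no residual degrees of freedom. Without an LPS 4 h library the 4 h effect could not be estimated. Depth limits the genes with under 50 reads most, and counting intervals hold no spread between mice or PCR reactions.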
